A study of Mus musculus with 9 samples.

Results

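Transcript levels of 10 immune checkpoint genes were examined in DC2.4, a mouse dendritic cell line: Cd274 (PD-L1), Pdcd1lg2 (PD-L2), Cd276 (B7-H3), Vsir (VISTA), Havcr2 (Tim-3), Lgals9 (galectin-9), Pvr (CD155), Nectin2 (CD112), Entpd1 (CD39) and Nt5e (CD73). They were chosen by symbol, as the main PD-1 ligands and other surface or secreted molecules by which antigen-presenting cells restrain lymphocytes, and make up 10 of the 21959 genes in the deposited table. RNA sequencing of total RNA gave 9 libraries, 3 each under the labels PBSDC, OMVSSDC and ZJDC. The question given for the study is the immune stimulation of these cells by an engineered vesicle preparation, EMV@SS. The meaning of OMVSS and of ZJ, whether either is EMV@SS, and the dose and time are not stated in the labels. PBSDC, after the usual abbreviation of phosphate-buffered saline, was taken as the reference. All groups are of the same cell line, with no genotype or other agent given. Whether the 3 libraries under one label are separate cultures is not stated, so the p-values measure only the spread between these libraries, which may be technical.

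Checkpoint molecules are surface proteins, secreted proteins and enzymes that dampen immune responses. PD-L1 and PD-L2 bind the receptor PD-1 on T cells and lower T cell receptor signalling. On dendritic cells PD-L1 is induced by interferons and by microbial products along with the costimulatory molecules, and it can bind CD80 on the same cell. CD155 and CD112 are read by inhibitory and activating receptors on T and NK cells, galectin-9 is a ligand of Tim-3, and CD39 and CD73 act in sequence to turn extracellular ATP into adenosine.

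Library totals ranged from 12784931 to 18388959 counts, and 11568 genes passed the filter on low counts. The third OMVSSDC library stood apart from the others of its group. A chi-square of its counts against those of the other OMVSSDC libraries was 61.2 and 64.5 per degree of freedom, compared with 1.87 between those 2 and 7.61 to 10.6 between the third library and the ZJDC libraries. Sampling alone gives about 1, so no 2 libraries were counted as one. The OMVSSDC values of the checkpoint genes are therefore also given without the third library and with it as the only OMVSSDC library, and those of other genes where this made or ended a call or moved the change most. Of 24 dendritic and myeloid marker genes 16 passed the filter, and their summed level was 6611 to 7222 CPM (read counts adjusted for sequencing depth) in all 9 libraries. The sum stayed in this range while single markers changed. At an adjusted p under 0.05, 9 were higher and 4 lower in OMVSSDC, and 7 were higher and 4 lower in ZJDC. Over all genes tested the shares called were 63.6% in OMVSSDC (33.4% higher and 30.2% lower) and 54.7% in ZJDC (27.6% and 27.1%). Some of the called markers were named after their values were seen. Itgam (log2 -1.50 in OMVSSDC and -1.04 in ZJDC), Lyz2 (-1.48 and -1.63) and Csf1r (-1.003 and -1.03) fell. Itgax (0.98 and 1.06) and Adgre1 (1.01 and 0.74) rose. Among the markers that did not pass were the dendritic cell genes Flt3, Ccr7, Xcr1 and Clec9a and the MHC class II genes H2-Aa, H2-Ab1 and H2-Eb1. Zbtb46, Batf3, Irf8 and Irf4, also on the list, did pass. Zbtb46 rose (log2 1.23 in OMVSSDC and 0.96 in ZJDC), and Batf3 was called as higher in OMVSSDC alone (1.06, then 0.10). Irf8 and Irf4 were called in neither. The labelled cell type was thus met by part of the list and not by the genes that did not pass. Of 13 T, NK and B cell markers 7 were at 0 in every library, Cd3e, Cd3g, Cd8a and Ncr1 among them, and Lck alone passed the filter. The summed level of these markers was 5.40 to 7.89 CPM in PBSDC, 13.1 to 16.5 in OMVSSDC and 11.98 to 13.9 in ZJDC. That sum includes Lck, which was called as higher in both groups (log2 1.16 in OMVSSDC and 0.93 in ZJDC). The 10 fibroblast and endothelial markers summed to 27.8 to 32.3 CPM in PBSDC, to 11.1, 10.4 and 31.2 in the OMVSSDC libraries and to 16.2 to 22.1 in ZJDC. The 10 epithelial markers stayed at or under 1.86 CPM, and the 10 granulocyte and erythroid markers at or under 2.098 CPM except in the first OMVSSDC library, at 10.4. The part of these differences in the results on the checkpoint genes was not tested.

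The stretches before the start sites of 4 genes are shown because they contrast a gene that rose strongly (Cd274), its neighbour with counts near 0 (Pdcd1lg2), and a ligand and receptor pair that moved in opposite directions (Lgals9 and Havcr2). They are the 120 bases next to the start site in RefSeq on GRCm38.p6, read 5′ to 3′ on the strand of the gene. Cd274 is at chr19:29367318-29367437 and Pdcd1lg2 at chr19:29410799-29410918, both on the plus strand. Havcr2 is at chr11:46454811-46454930 on the plus strand and Lgals9 at chr11:78984925-78985044 on the minus strand. Capitals mark matches to the searched motifs.
Cd274: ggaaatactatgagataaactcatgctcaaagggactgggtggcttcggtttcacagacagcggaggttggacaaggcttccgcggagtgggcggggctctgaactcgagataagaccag
Pdcd1lg2: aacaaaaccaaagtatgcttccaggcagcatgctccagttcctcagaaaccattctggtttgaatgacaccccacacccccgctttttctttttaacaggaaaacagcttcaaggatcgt
Lgals9: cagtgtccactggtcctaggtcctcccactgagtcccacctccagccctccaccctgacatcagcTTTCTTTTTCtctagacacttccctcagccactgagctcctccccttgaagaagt
Havcr2: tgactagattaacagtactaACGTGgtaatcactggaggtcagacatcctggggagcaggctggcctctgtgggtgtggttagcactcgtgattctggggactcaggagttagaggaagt

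The search covered 250 bases before the start site on both strands, for 9 of the 10 genes, with 2 start sites for Entpd1; Pvr was not matched in the table used. The 6 patterns were the interferon-stimulated response element (GAAA, any 2 bases, GAAA), the gamma-activated site (TTC, any 3 bases, GAA), 2 kappa B patterns (GGG, any 2 bases, TTTCC and GGG, any base, A, any base, TTCC), AP-1 (TGANTCA) and the hypoxia response element (ACGTG). Lgals9 held the interferon-stimulated pattern on the opposite strand, 55 to 46 bases before the start, a pattern found in 2.98% of 32851 promoters. Havcr2 held ACGTG 100 to 96 bases before the start, which 16.6% of promoters hold, and TGATTCA 200 to 194 bases before it, outside the stretch shown, where 6.75% hold the AP-1 pattern. In the windows of the other 7 genes none of the 6 patterns was found; the gamma-activated site and the 2 kappa B patterns occurred in 7.02%, 1.41% and 1.03% of all promoters. These matches are descriptions of the letters and were not tested for binding.

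Against PBSDC, 6 checkpoint genes rose in both OMVSSDC and ZJDC (Cd274, Cd276, Lgals9, Pvr, Nectin2 and Entpd1), and 2 fell in both (Vsir and Havcr2). Cd274 changed most, 7.99-fold in OMVSSDC and 6.88-fold in ZJDC. Pdcd1lg2 and Nt5e had too few counts to pass the filter and were not tested. The test was edgeR's quasi-likelihood test over all 11568 genes with Benjamini-Hochberg adjustment, and a gene was called at an adjusted p under 0.05. In OMVSSDC against PBSDC all 8 tested members were called, where 63.6% of all genes tested were called, 33.4% as higher and 30.2% as lower. In ZJDC against PBSDC the same 8 were called, beside 54.7% of all genes, 27.6% higher and 27.1% lower. In both comparisons Cd274, Cd276 and Entpd1 were over 2-fold higher, beside 12.9% of all genes in OMVSSDC and 9.18% in ZJDC, and Havcr2 was over 2-fold lower, beside 6.87% and 3.89%. In neither comparison did the groups of any of the 8 overlap, which held for 65.7% of all genes in OMVSSDC and 72.2% in ZJDC. With so large a share of all genes called, the count of members called says little by itself. The median log2 fold change of the 8 members was 0.73 in OMVSSDC and 0.57 in ZJDC, beside 0.05 and 0.01 over all genes tested. Both comparisons share the PBSDC libraries. In bulk RNA fewer cells of a kind and less RNA per cell cannot be told apart.

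**Figure D1:**
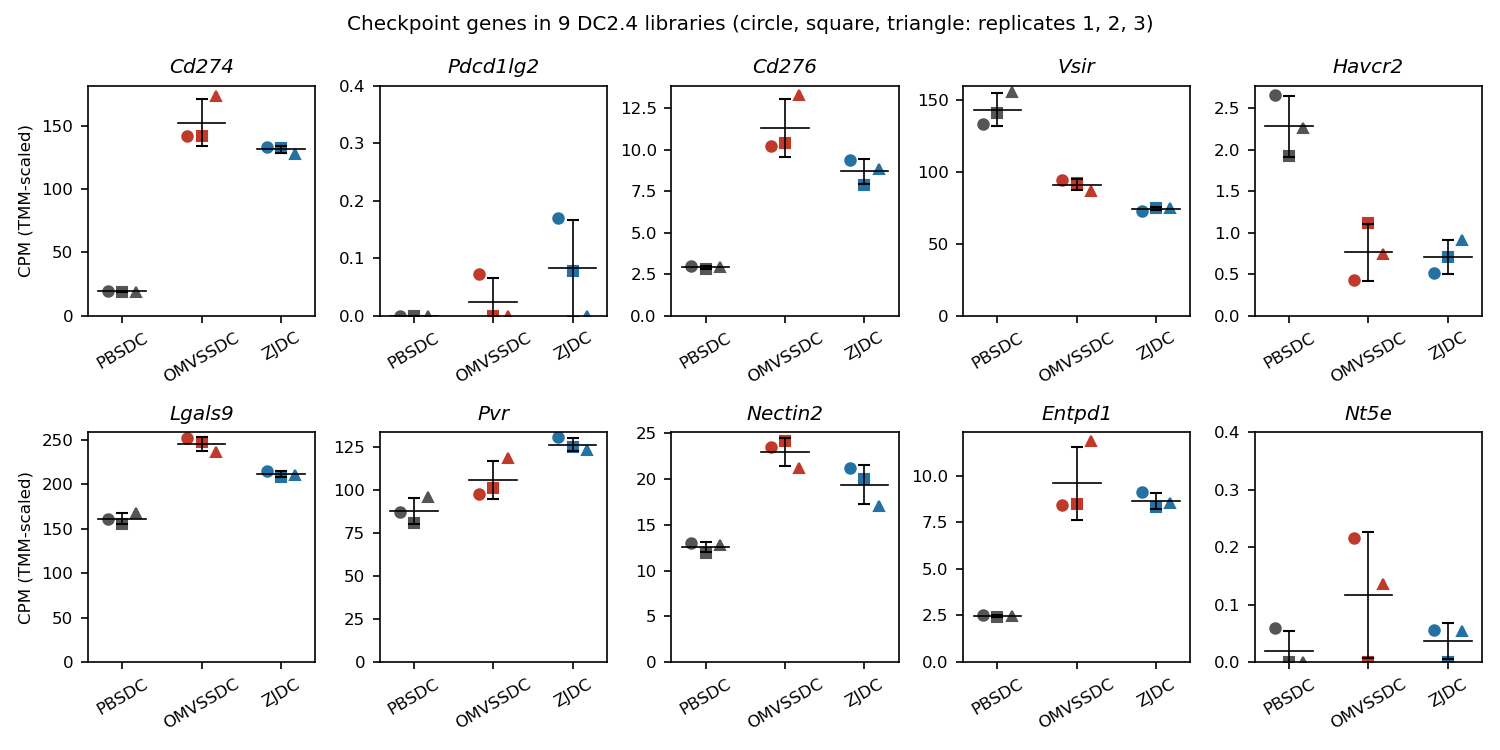
Level of each of the 10 checkpoint genes in TMM-scaled CPM (vertical axis, linear from 0) in the libraries of each group; bars are the mean and SD of 3 libraries. For 8 genes the PBSDC libraries lie apart from both other groups, and Pdcd1lg2 and Nt5e stay at or under 0.216 CPM in every library.

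Cd274, the gene of PD-L1, stood at 19.5, 18.9 and 18.8 CPM in the PBSDC libraries, at 142, 142 and 174 CPM in OMVSSDC and at 133, 132 and 128 CPM in ZJDC. All 6 libraries of the latter groups lay above every PBSDC library, and the third OMVSSDC library was the highest of all. The log2 fold change was 2.999 in OMVSSDC (SE 0.092, adjusted p = 1.00e-08) and 2.78 in ZJDC (SE 0.092, adjusted p = 1.81e-08). It was 2.89 without the third OMVSSDC library and 3.18 with that library alone. Among all genes tested 117 (1.01%) had a larger increase in OMVSSDC, and 90 (0.778%) had one in ZJDC. By FPKM, which is scaled for gene length, Cd274 ranked 6546 to 6656 of 21959 genes in PBSDC, 908 to 1176 in OMVSSDC and 1258 to 1316 in ZJDC. Its rank was thus higher in each of those 6 libraries than in any PBSDC library.

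Pdcd1lg2 encodes PD-L2, the second ligand of PD-1. It had 0 counts in all PBSDC libraries, 1, 0 and 0 counts in OMVSSDC and 3, 1 and 0 in ZJDC. A count of 0 allows up to 3 counts, or 0.161 to 0.235 CPM in these libraries, and the counts found were not above that limit. No change was detectable at this depth, and no fold is given. Without the filter the adjusted p was 0.466 in OMVSSDC and 0.191 in ZJDC. The 2 ligands of PD-1 were therefore measured very unequally, Cd274 with 258 to 2567 counts per library and Pdcd1lg2 with at most 3.

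Cd276 encodes B7-H3, a B7 family member whose receptor is unsettled and which can restrain T cells. It had 3.01, 2.81 and 2.92 CPM in PBSDC, 10.2, 10.4 and 13.3 in OMVSSDC and 9.36, 7.91 and 8.86 in ZJDC. Every OMVSSDC and ZJDC library was above every PBSDC library. The gene rose 3.87-fold in OMVSSDC (log2 1.95, SE 0.15, adjusted p = 2.41e-06) and 2.99-fold in ZJDC (log2 1.58, SE 0.16, adjusted p = 1.70e-05). Counts were 40 to 51 per PBSDC library, so the reference level is less precise than that of Cd274.

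Vsir encodes VISTA, a B7-like inhibitory protein of myeloid cells. It stood at 133, 141 and 156 CPM in PBSDC, at 94.4, 92.2 and 86.8 in OMVSSDC and at 73.0, 75.0 and 74.6 in ZJDC. The 3 groups did not overlap and PBSDC was the highest. The log2 fold change was -0.65 in OMVSSDC (SE 0.071, adjusted p = 2.26e-05) and -0.95 in ZJDC (SE 0.071, adjusted p = 2.86e-06). Vsir thus moved against Cd274 and Cd276, the other B7-related members called. Vsir overlaps Cdh23 on the opposite strand, and the sources do not say whether counting used strand; Cdh23 had means of 0.437 to 0.910 CPM in the 3 groups.

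Havcr2 encodes Tim-3, an inhibitory receptor that dendritic cells as well as T cells can carry. Its counts were 45, 28 and 31 in PBSDC, 6, 20 and 11 in OMVSSDC and 9, 9 and 17 in ZJDC. In CPM these are 2.65, 1.92 and 2.26, then 0.433, 1.12 and 0.744, then 0.508, 0.705 and 0.913. PBSDC was above both other groups without overlap, and the OMVSSDC and ZJDC libraries were interspersed. The log2 fold change was -1.53 in OMVSSDC (SE 0.33, adjusted p = 0.00244) and -1.68 in ZJDC (SE 0.34, adjusted p = 0.00188). These low counts leave wide intervals, from 0.207 to 0.578 of the PBSDC level in OMVSSDC and from 0.186 to 0.526 in ZJDC.

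Lgals9, which encodes galectin-9, a secreted lectin and ligand of Tim-3, moved the other way. Its level was 161, 155 and 168 CPM in PBSDC, 252, 247 and 236 in OMVSSDC and 214, 208 and 210 in ZJDC. The groups did not overlap, with OMVSSDC highest and PBSDC lowest. It rose 1.52-fold in OMVSSDC (log2 0.60, SE 0.059, adjusted p = 1.08e-05) and 1.31-fold in ZJDC (log2 0.39, SE 0.059, adjusted p = 0.000309).

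Pvr encodes CD155, which TIGIT, CD96 and the activating receptor CD226 bind. It stood at 87.2, 81.0 and 96.0 CPM in PBSDC, at 97.7, 101 and 119 in OMVSSDC and at 131, 125 and 123 in ZJDC. The lowest OMVSSDC library exceeded the highest PBSDC library by little. The log2 fold change was 0.27 in OMVSSDC (SE 0.089, adjusted p = 0.0243) and 0.52 in ZJDC (SE 0.089, adjusted p = 0.000686). The OMVSSDC call was lost without the first PBSDC library (adjusted p = 0.0720), without the second (adjusted p = 0.117) and in a fit of OMVSSDC and PBSDC alone (adjusted p = 0.0769). Its log2 fold change was 0.18 without the third OMVSSDC library (adjusted p = 0.0109) and 0.43 with that library alone (adjusted p = 3.17e-05). The fitted increase of Pvr was larger in ZJDC, and that of the other 5 rising members was larger in OMVSSDC, except that without the third OMVSSDC library Entpd1 rose slightly less there than in ZJDC (a difference of -0.037).

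Nectin2 encodes CD112, which the inhibitory receptor PVRIG and, more weakly, TIGIT bind. Its level was 13.04, 11.9 and 12.8 CPM in PBSDC, 23.4, 24.1 and 21.2 in OMVSSDC and 21.2, 19.96 and 17.0 in ZJDC. Both groups lay above PBSDC, and the OMVSSDC libraries lay just above the ZJDC libraries. The log2 fold change was 0.87 in OMVSSDC (SE 0.11, adjusted p = 6.47e-05) and 0.62 in ZJDC (SE 0.11, adjusted p = 0.000829).

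Entpd1 encodes CD39, which removes phosphates from extracellular ATP and ADP. Its level was 2.54, 2.40 and 2.48 CPM in PBSDC, 8.44, 8.49 and 11.8 in OMVSSDC and 9.14, 8.30 and 8.54 in ZJDC. Every OMVSSDC and ZJDC library was above every PBSDC library, and the 2 groups overlapped each other. Entpd1 rose 3.86-fold in OMVSSDC (log2 1.95, SE 0.17, adjusted p = 5.46e-06) and 3.49-fold in ZJDC (log2 1.80, SE 0.17, adjusted p = 1.40e-05). Nt5e, the gene of CD73, which carries out the next step to adenosine, had 1, 0 and 0 counts in PBSDC, 3, 0 and 2 in OMVSSDC and 1, 0 and 1 in ZJDC. Those counts do not exceed what a count of 0 allows, and no change was detectable at this depth. Without the filter its adjusted p was 0.306 in OMVSSDC and 0.788 in ZJDC. Transcripts of the first enzyme of the pair were thus measured at 34 to 175 counts per library and those of the second at 3 or fewer.

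In OMVSSDC all 8 tested members were called against PBSDC both without the third OMVSSDC library and with that library alone, and no direction turned. Besides Cd274 and Pvr, given above, the log2 fold change of Cd276 was 1.82 without it and 2.18 with it alone. That of Entpd1 was 1.77 and 2.25. That of Vsir was -0.62 and -0.73. These 3 changes were larger in the third library than in the others of its group. Havcr2 had -1.49 without it and -1.62 with it alone. Lgals9 had 0.63 and 0.54. Nectin2 had 0.92 and 0.75. Of these 3, the changes of Lgals9 and Nectin2 were smaller in the third library.

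**Figure D2:**
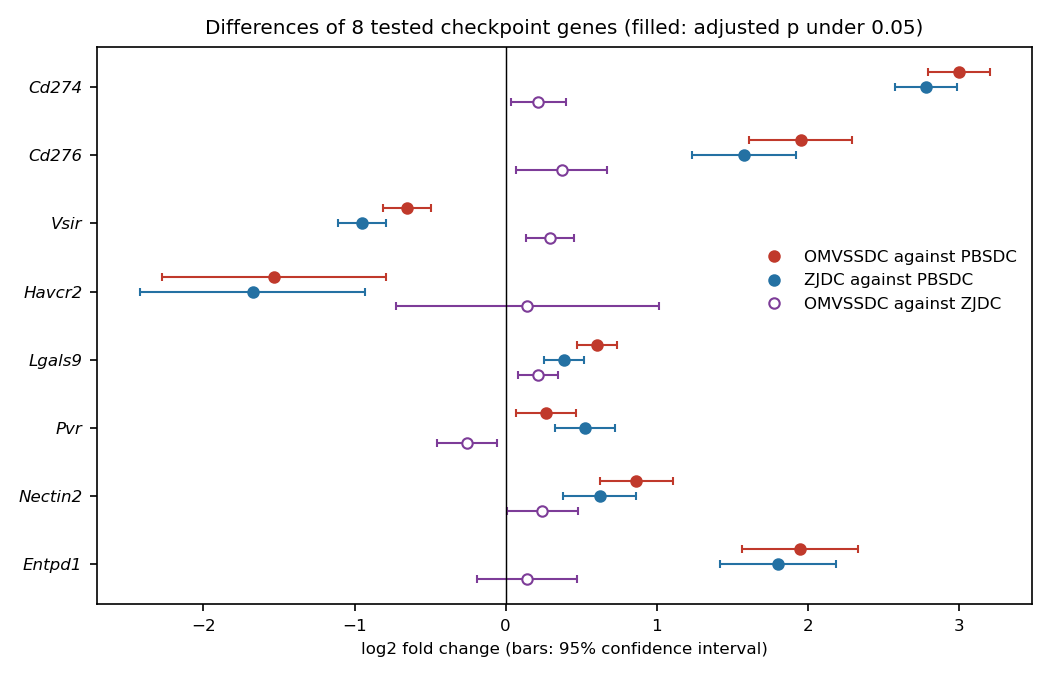
Log2 fold change (horizontal axis) of the 8 tested checkpoint genes in 3 comparisons, with 95% confidence intervals; filled points passed an adjusted p of 0.05. All 16 points against PBSDC are filled, with Vsir and Havcr2 to the left of 0, and none of OMVSSDC against ZJDC is.

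OMVSSDC and ZJDC were next compared directly, which also tests whether the change from PBSDC differed between them. None of the 8 tested members was called by edgeR, beside 1.95% of all genes (226 of 11568), 0.856% higher and 1.10% lower. Over 2-fold, 0.0778% of all genes were higher and 0.0519% lower. At an unadjusted p under 0.05 there were 6 of the 8. The share of all genes under that limit was not counted, so the 6 have no background to be read against. DESeq2 called 2 (Vsir and Lgals9), and over all genes it also called far more than edgeR, as given below. With limma-voom 0 were called. The groups did not overlap for 6 of the 8, Havcr2 and Entpd1 being the exceptions, beside 24.0% of all genes. The log2 difference of OMVSSDC from ZJDC was 0.22 for Cd274 (95% interval 0.03 to 0.40, adjusted p = 0.115), 0.37 for Cd276 (0.07 to 0.67, adjusted p = 0.107) and 0.30 for Vsir (0.14 to 0.45, adjusted p = 0.0562). Lgals9 differed by 0.22 (0.08 to 0.35, adjusted p = 0.0723), Nectin2 by 0.24 (0.01 to 0.48, adjusted p = 0.146) and Pvr by -0.26 (-0.45 to -0.06, adjusted p = 0.0998). For Entpd1 the difference was 0.14 (-0.19 to 0.47, adjusted p = 0.508) and for Havcr2 0.14 (-0.73 to 1.01, adjusted p = 0.814). A missed threshold does not show that the groups were alike.

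The third OMVSSDC library bears on this comparison. Without it 4 members were called: Vsir at 0.33 (adjusted p = 3.88e-05), Lgals9 at 0.24 (adjusted p = 6.28e-05), Nectin2 at 0.30 (adjusted p = 0.0155) and Pvr at -0.35 (adjusted p = 1.54e-05), while Cd274 stood at 0.11 (adjusted p = 0.0686). Over all genes 6539 were then called in place of 226. With the third library as the only one of its group, Cd274 was called, at 0.40 (adjusted p = 0.000844), and no other member was. Cd274, Cd276, Entpd1 and Pvr were higher in the third library than in the others of the group, and Vsir, Lgals9 and Nectin2 were lower. For the first 3 of these genes the third library was thus farther from ZJDC than the others of its group, although over all genes its counts were closest to those of ZJDC.

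Levels were compared between genes by FPKM. In PBSDC the order was Lgals9 at 72.1 ± 2.90 FPKM (SD, n = 3), Vsir at 27.3 ± 2.23, Pvr at 13.8 ± 1.19, Cd274 at 5.03 ± 0.084 and Nectin2 at 3.44 ± 0.16. Below them were Havcr2 at 0.801 ± 0.13 and Cd276 at 0.762 ± 0.025, which did not differ beyond their spread, and Entpd1 at 0.424 ± 0.011. In OMVSSDC Lgals9 at 120 ± 7.8 FPKM (SD, n = 3) was followed by Cd274 at 43.9 ± 3.7, then by Vsir at 19.003 ± 1.4 and Pvr at 18.02 ± 1.3, which lay within their spread. Nectin2 at 6.87 ± 0.67, Cd276 at 3.22 ± 0.38, Entpd1 at 1.79 ± 0.30 and Havcr2 at 0.294 ± 0.14 came next. In ZJDC the order was Lgals9 at 98.7 ± 1.2 FPKM (SD, n = 3), Cd274 at 36.2 ± 0.40, Pvr at 20.7 ± 0.42, Vsir at 14.8 ± 0.36, Nectin2 at 5.55 ± 0.55, Cd276 at 2.38 ± 0.20, Entpd1 at 1.55 ± 0.066 and Havcr2 at 0.261 ± 0.078. Cd274 thus moved from the fourth place to the second, while Havcr2 fell below Cd276 and Entpd1 in both groups.

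The summed FPKM of the 10 genes was 119 to 130 in PBSDC, 208 to 216 in OMVSSDC and 179 to 182 in ZJDC. Cd274 took 3.82% to 4.22% of that sum in PBSDC, 19.3% to 23.1% in OMVSSDC and 19.9% to 20.4% in ZJDC. The share of Vsir fell from 20.8% to 22.8% in PBSDC to 8.36% to 9.28% in OMVSSDC and 7.93% to 8.36% in ZJDC. Lgals9 held the largest share in every library, 53.3% to 59.1%. Messenger RNA per length says nothing of protein at the surface, and the shares are a description. The sums are scaled by library total and not by TMM, which makes their rises from PBSDC larger.

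**Figure D3:**
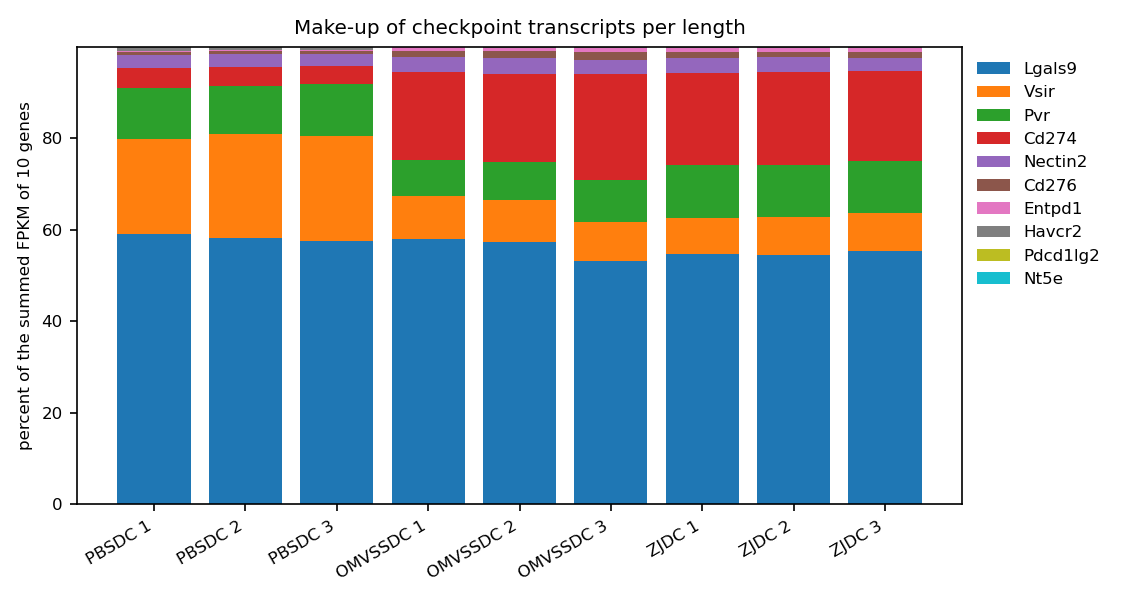
Share of each gene (percent, vertical axis) in the summed FPKM of the 10 checkpoint genes, one bar per library. The band of Cd274 widens from at most 4.22% in PBSDC to 19.3% or more in all OMVSSDC and ZJDC libraries, and the band of Vsir narrows.

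CD80, a costimulatory molecule that PD-L1 can bind on the same cell, was set beside Cd274 as a binding partner. Cd80 stood at 8.26, 7.41 and 8.03 CPM in PBSDC, 7.36, 6.54 and 9.07 in OMVSSDC and 10.2, 11.5 and 8.75 in ZJDC, and it was called in neither comparison (log2 -0.05, adjusted p = 0.793, and 0.35, adjusted p = 0.0752). The ratio of Cd274 to Cd80 in FPKM was 2.40 to 2.60 in PBSDC, 19.6 to 22.2 in OMVSSDC and 11.8 to 14.9 in ZJDC. In every OMVSSDC and ZJDC library the ratio exceeded every PBSDC value. That follows from the rise of Cd274 with little change of Cd80, and it is not separate evidence. The sign of the small Cd80 change in OMVSSDC turned positive when libraries were scaled by size alone (0.074), with the third OMVSSDC library alone (0.19) or without the second (0.052). The missing call of Cd80 in ZJDC is not firm, since 5 of the 18 alternatives called it as higher. They were library size as the scaling (log2 0.42, adjusted p = 0.0321), ZJDC and PBSDC alone (adjusted p = 0.0219), the fits without the third OMVSSDC library (adjusted p = 0.0215) or the third ZJDC library (adjusted p = 0.0496), and the third OMVSSDC library alone (adjusted p = 0.0236).

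Cd274 lies on chromosome 19 at 29344855 to 29365495 of the table's coordinates, whose build no source used here names, on the plus strand. Plgrkt, a plasminogen receptor gene on the minus strand, ends 0.065 kb before it, so that the 2 genes start back to back. Of its 12 listed neighbours 9 were tested; 6 were higher and 2 lower in OMVSSDC, and 5 were higher and 1 lower in ZJDC, where 63.6% and 54.7% of all genes tested were called. Plgrkt rose from 25.6, 26.7 and 26.1 CPM in PBSDC to 78.2, 84.1 and 92.2 in OMVSSDC and 68.6, 71.3 and 73.0 in ZJDC. Its log2 fold changes were 1.70 (SE 0.077, adjusted p = 8.89e-08) and 1.44 (SE 0.077, adjusted p = 3.60e-07). Jak2, the kinase of interferon gamma signalling, 54.4 kb from Cd274, rose from 54.2, 53.2 and 49.7 CPM to 139, 141 and 163 in OMVSSDC and 162, 154 and 150 in ZJDC. The log2 fold changes of Jak2 were 1.496 (adjusted p = 1.93e-07) and 1.57 (adjusted p = 2.84e-07).

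Insl6, between Jak2 and Plgrkt, rose by 2.22 and 1.86 on the log2 scale at a mean of 0.565 CPM in PBSDC. Farther out the changes were smaller. Uhrf2 rose by 0.81 in OMVSSDC and 0.69 in ZJDC and Ric1 by 0.33 and 0.44, and Rcl1 fell by 0.44 and 0.50. Ak3 was called as higher in OMVSSDC alone (0.31, then 0.17 in ZJDC) and Ermp1 as lower in OMVSSDC alone (-0.30, then -0.03), and the difference between the groups was not called for either. Cdc37l1 was not called (-0.12 and -0.02), except as lower in OMVSSDC without the third OMVSSDC library (-0.22, adjusted p = 0.0167). The OMVSSDC call of Rcl1 was lost with library size as the scaling (-0.31, adjusted p = 0.0578). The OMVSSDC call of Ak3 was lost with the third OMVSSDC library alone (log2 0.019, adjusted p = 0.885) and without the first or second (adjusted p = 0.0954 and 0.120). The calls of Ak3 and Ric1 in OMVSSDC were also lost without the first PBSDC library (adjusted p = 0.0601 and 0.0633) or the second (adjusted p = 0.0994 and 0.0881), and that of Ak3 without the third (adjusted p = 0.0618). Both were lost with OMVSSDC and PBSDC alone (adjusted p = 0.0728 and 0.0637). Ak3 was called as higher in ZJDC too without the third OMVSSDC library (adjusted p = 0.0275), with that library alone (adjusted p = 0.0357) and with ZJDC and PBSDC alone (adjusted p = 0.0305). Pdcd1lg2, which starts 22.8 kb after the end of Cd274, stayed near 0 while Cd274, Plgrkt and Ric1, on either side of it, rose.

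**Figure D4:**
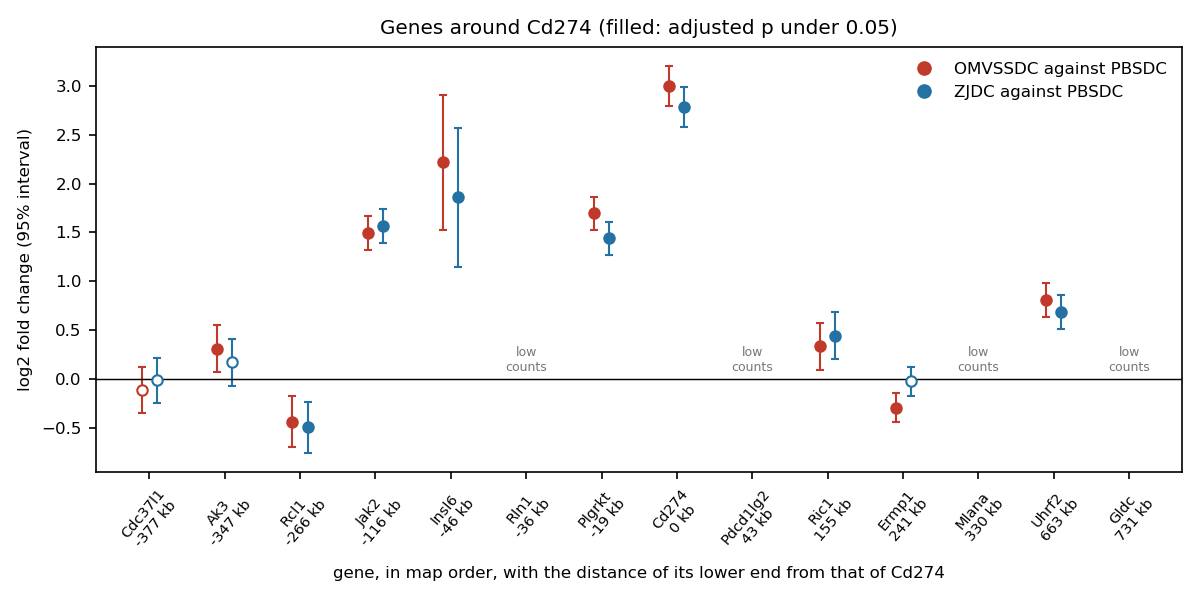
Log2 fold change against PBSDC (vertical axis, with 95% confidence intervals) of genes around Cd274 in map order, with the distance of each in kb; filled points passed an adjusted p of 0.05. Cd274, Plgrkt, Insl6 and Jak2 lie above 1 in both groups, and the tested genes farther away lie between -0.50 and 0.81.

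Other genes of the pathway were taken from lists, each described by its count of calls. These counts are to be read against the shares over all genes tested, 63.6% called in OMVSSDC (33.4% higher and 30.2% lower) and 54.7% in ZJDC (27.6% and 27.1%), and the medians against 0.05 and 0.01 over all genes. Of 17 receptors and binding partners of the checkpoint genes 12 were tested, and 5 were higher and 4 lower in OMVSSDC and again in ZJDC, 9 of 12 in each beside 63.6% and 54.7% of all genes. The median log2 fold changes were 0.07 and 0.25, beside 0.05 and 0.01. The T and NK cell receptors Tigit, Cd226 and Cd96 had 0 counts in every library and Pdcd1, the gene of PD-1, at most 4. Pvrig, the receptor of CD112, fell from 28, 30 and 20 counts in PBSDC to 2, 2 and 4 in OMVSSDC and 7, 4 and 9 in ZJDC. Its log2 fold changes were -3.26 (adjusted p = 3.63e-05) and -2.07 (adjusted p = 0.000339), and with the third OMVSSDC library alone the former was -2.64. Pvrig passed the filter on low counts only through its PBSDC libraries. A fall was therefore favoured in advance, and these p-values are not used as support for it. Receptor and ligand moved in opposite directions for Pvrig and Nectin2, as for Havcr2 and Lgals9. These pairs do not stand for the whole list. Hmgb1 and Bag6, other partners of Tim-3, fell along with Havcr2, while Igsf11, a partner of VISTA, rose as Vsir fell.

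Igsf11, a partner of VISTA, had 4, 0 and 0 counts in PBSDC, 20, 25 and 22 in OMVSSDC and 21, 8 and 34 in ZJDC (adjusted p = 0.000894 and 0.00175). Igsf11 passed the filter only through libraries outside PBSDC, so a rise was favoured in advance and its p-values are not used as support. Hmgb1, a chromatin protein that Tim-3 binds when it is released, fell from 169 ± 7.07 CPM (SD, n = 3) to 61.3 ± 14.6 in OMVSSDC and 82.8 ± 4.85 in ZJDC. The log2 fold changes of Hmgb1 were -1.46 (edgeR adjusted p = 1.04e-05) and -1.03 (adjusted p = 0.000150). Bag6, which binds the tail of Tim-3, fell by 0.39 and 0.38. The cell adhesion genes Nectin4 and Nectin1 rose by 1.05 and 0.83 in OMVSSDC and by 0.52 and 1.07 in ZJDC. The ZJDC call of Nectin4 was lost without any 1 of the PBSDC libraries (adjusted p = 0.0707, 0.0786 and 0.0793) and without the second or the third ZJDC library (adjusted p = 0.0545 and 0.125).

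Among 27 other immune inhibitory molecules 12 were tested; 7 were higher and 1 lower in OMVSSDC, and 8 were higher and 0 lower in ZJDC. These are 8 of 12 in each, beside 63.6% and 54.7% of all genes, of which 33.4% and 27.6% were higher. The median log2 fold changes of this list were 0.78 and 0.69, beside 0.05 and 0.01 over all genes. Lilrb4a, an inhibitory receptor of myeloid cells, rose from 163, 161 and 157 CPM to 748, 783 and 891 in OMVSSDC and 798, 759 and 779 in ZJDC. Its log2 fold change was 2.33 (adjusted p = 1.20e-08) and 2.28 (adjusted p = 1.76e-08). Lilrb4b, its close paralogue, rose by 2.05 and 2.08, and reads of the 2 may be split uncertainly. An inhibitory action of Lilrb4b itself is not claimed here, although the count and median of this list include it. Lgals3, which encodes galectin-3, a lectin that binds LAG-3, rose from 56.7, 54.3 and 57.0 CPM in PBSDC to 326, 328 and 151 in OMVSSDC and 131, 146 and 181 in ZJDC. Its log2 fold changes were 2.26 and 1.45, and the OMVSSDC value was 2.55 without the third OMVSSDC library and 1.43 with that library alone, which lay among the ZJDC libraries. Cd244a, a SLAM family receptor, was the 1 lower gene in OMVSSDC (-0.51) and had -0.22 in ZJDC, without a call. That call was lost with library size as the scaling (-0.39, adjusted p = 0.0730), without the first or second OMVSSDC library (adjusted p = 0.0978 and 0.0591), with the third alone (-0.27, adjusted p = 0.281) and without the second or the third PBSDC library (adjusted p = 0.0785 and 0.0928). The ZJDC count fell from 8 to 5 without the first or second PBSDC library or the first ZJDC library. The ZJDC count over all genes, 6323, also ranged from 5459 to 8242 with 1 library left out.

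Of 26 inducers and regulators of Cd274 transcription all were tested. In OMVSSDC 10 were higher and 4 lower, and in ZJDC 13 were higher and 1 lower, with median log2 fold changes of 0.12 and 0.25. The 14 of 26 called in each stand beside 63.6% and 54.7% of all genes, a share no higher than the background for both directions together. By direction, the 10 higher and 4 lower in OMVSSDC stand beside 33.4% and 30.2% of all genes. The 13 higher and 1 lower in ZJDC stand beside 27.6% and 27.1%. The split by direction was not tested. Irf7, the interferon regulatory factor of type I interferon responses, rose from 151, 148 and 170 CPM in PBSDC to 652, 644 and 624 in OMVSSDC and 450, 432 and 449 in ZJDC. The 3 groups did not overlap. The log2 fold changes of Irf7 were 2.04 (adjusted p = 1.65e-08) and 1.51 (adjusted p = 1.44e-07). Irf7 was the only gene of all lists called between OMVSSDC and ZJDC (0.53, adjusted p = 0.0127). That call was lost in 5 of the 9 fits without 1 library, those without the first or second OMVSSDC library (adjusted p = 0.0633 and 0.0763) or any ZJDC library (adjusted p = 0.106, 0.139 and 0.0806), and with OMVSSDC and ZJDC alone (adjusted p = 0.0878).

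Fos, a subunit of AP-1, rose by 2.02 in OMVSSDC and 1.55 in ZJDC. Socs1, which restrains interferon signalling, rose by 2.01 and 1.49. The call of Socs1 was lost with the third OMVSSDC library alone (0.89, adjusted p = 0.0740), and in ZJDC without the first PBSDC library (adjusted p = 0.0723) or the third ZJDC library (adjusted p = 0.0522). Myc fell by 1.05 in OMVSSDC and had -0.44 in ZJDC without a call. Ptpn2, a phosphatase of the JAK and STAT pathway, fell by 0.66 and had -0.25 without a call. Myc and Ptpn2 were called as lower in ZJDC too without the third OMVSSDC library (adjusted p = 0.000361 and 0.00134), with that library alone (adjusted p = 0.000507 and 0.00193) and with ZJDC and PBSDC alone (adjusted p = 0.000611 and 0.00239), and Myc also without the second OMVSSDC library (adjusted p = 0.0475). The count of called inducers in ZJDC was 22 in place of 14 without the third OMVSSDC library and with ZJDC and PBSDC alone. Over all genes the ZJDC count moved too, from 6323 to between 5459 and 8242 over the alternatives. The share of all genes called in those fits is not given here, so the 22 is not read as a gain of inducers.

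Of 31 genes of PD-L1 protein stability and traffic 30 were tested; 9 were higher and 10 lower in OMVSSDC, and 7 were higher and 8 lower in ZJDC, with median log2 fold changes of 0.00 and -0.04. The 19 and 15 called are close to the shares of 63.6% and 54.7% over all genes. Ccnd1 and Cdk4, a cyclin and its kinase that act on PD-L1 degradation through SPOP, fell by 1.24 and 1.02 in OMVSSDC and by 1.20 and 0.93 in ZJDC. Gsk3b, a kinase that marks PD-L1 for degradation, rose by 0.81 and 1.04, and Rab11a, a GTPase of recycling endosomes, by 0.86 and 0.65. Trappc4, a trafficking subunit, was called as higher in OMVSSDC (0.81) and not in ZJDC (0.19). The call of Trappc4 was lost without the first or second OMVSSDC library (adjusted p = 0.0796 and 0.0887), without any 1 PBSDC library (adjusted p up to 0.0757), with limma-voom (adjusted p = 0.0590) and with OMVSSDC and PBSDC alone (adjusted p = 0.0529). With the third OMVSSDC library alone its sign turned to -0.14 (adjusted p = 0.358). In ZJDC it was called without the third OMVSSDC library (adjusted p = 0.0371) and with ZJDC and PBSDC alone (adjusted p = 0.0447).

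Of 31 genes of extracellular ATP and adenosine other than Entpd1 and Nt5e 18 were tested; 6 were higher and 8 lower in OMVSSDC, and 4 were higher and 7 lower in ZJDC, where 63.6% and 54.7% of all genes were called. Acpp, a phosphatase that can also form adenosine from AMP, rose by 1.63 (adjusted p = 0.00129) and 1.59 (adjusted p = 0.00186), at a mean of 1.11 CPM in PBSDC. Adora2b, an adenosine receptor, rose by 1.19 in OMVSSDC and had 0.40 in ZJDC without a call. Enpp1, which cleaves extracellular ATP, rose by 1.19 in OMVSSDC and had 0.98 in ZJDC without a call. The OMVSSDC call of Enpp1 was lost without the second OMVSSDC library (adjusted p = 0.0612) or the second PBSDC library (adjusted p = 0.0800), and in ZJDC it was called without the third OMVSSDC library (adjusted p = 0.0317) or the first ZJDC library (adjusted p = 0.0252), with library size as the scaling (adjusted p = 0.0465), with ZJDC and PBSDC alone (adjusted p = 0.02996) and with the third OMVSSDC library alone (adjusted p = 0.0373). P2ry12, a receptor of ADP, fell by 1.97 and 1.52, Adk, adenosine kinase, by 1.09 and 0.86, and Entpd7, an intracellular relative of CD39, by 0.93 and 0.84.

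When libraries were scaled by size alone, the median of all genes in OMVSSDC against PBSDC moved from 0.05 to 0.18, a shift of 0.13, and the split of the lists shifted with it. The higher and lower calls in OMVSSDC were then 6 and 3 for receptors and partners, 8 and 0 for other inhibitory molecules and 17 and 3 for inducers. They were 13 and 9 for stability and traffic, 6 and 5 for ATP and adenosine and 6 and 1 for the neighbours of Cd274. The shares of all genes called higher and lower under this scaling are not given here, so these counts have no background beside them. The checkpoint genes kept 6 higher and 2 lower under this scaling and under that of DESeq2 and RLE.

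**Figure D5:**
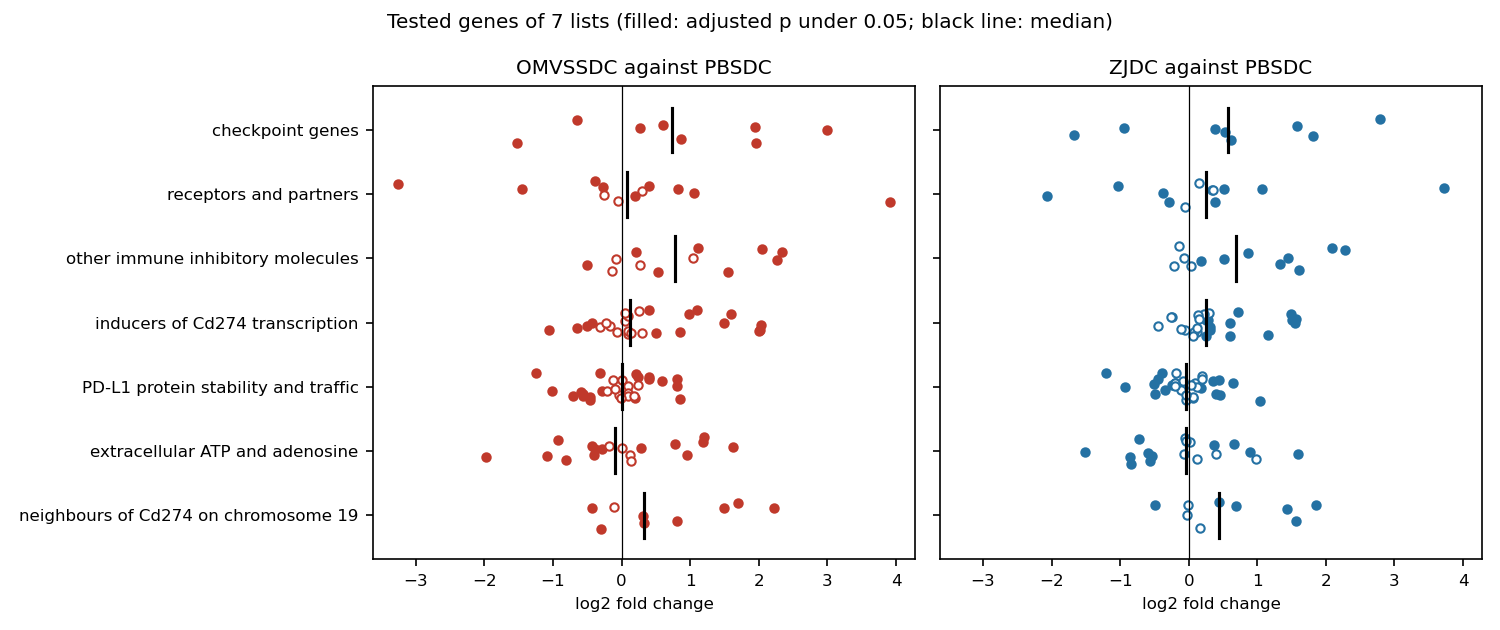
Log2 fold change (horizontal axis) of every tested gene of 7 lists in OMVSSDC and ZJDC against PBSDC; filled points passed an adjusted p of 0.05 and black lines are medians. The checkpoint genes and the other inhibitory molecules have medians between 0.57 and 0.78, and the lists of protein stability and of ATP and adenosine have medians of 0.00 or below.

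The genes most like each member were sought by the root mean square difference of centred log2 CPM over the 9 libraries, among genes with a mean of at least 5 CPM. For Cd274 they were Lrrc75a (0.084), Pfn2 (0.097), Ly75 (0.13), Agap1 (0.13), Egr1 (0.14) and Dnm1 (0.15) of 9623 genes compared. Ly75, the gene of the dendritic cell uptake receptor DEC-205, had 5.09 ± 0.39 CPM (SD, n = 3) in PBSDC, 39.6 ± 1.4 in OMVSSDC and 34.2 ± 3.4 in ZJDC. Egr1, an immediate early transcription factor, had 14.6 ± 0.60, 125 ± 27 and 123 ± 5.3 CPM (SD, n = 3).

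For Cd276 the nearest genes were Smim14 (0.099), Them4 (0.12) and Entpd1 (0.12), the last being a checkpoint gene itself. For Entpd1 they were Zcchc24 (0.081), Them4 (0.084) and Rora (0.084), for Vsir Pif1, Ppa1 and Slamf9 (each 0.085), and for Lgals9 Slc38a9 (0.035), Zfp871 (0.039) and Prkab2 (0.047). Havcr2 had no close match at its low counts, the nearest being Rnf150 (0.32). These distances rest on the same 9 libraries and 3 groups, and they are descriptions of pattern only.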

How the data were processed

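Total RNA of DC2.4 cells was sequenced in 9 libraries, grouped by their titles into OMVSSDC, PBSDC and ZJDC. Reads were processed with fastp 0.22.0, HISAT2 2.1.0 and HTSeq 0.9.1, per the submitters' processing notes. No source used here names the genome build, and the table's gene coordinates matched GENCODE M21 (GRCm38) for 514 of 21851 shared genes and for 0 of the 10 members. Strand use in counting is not stated. The deposited values are whole read counts per gene, per the file headers, which the authors did not normalize, and all count columns were used. The authors also deposited FPKM, which equalled the count scaled by gene length and library total within a relative deviation of 1.3e-07. FPKM served to compare levels between genes, and for the ranks, the summed level and the ratio of Cd274 to Cd80. It is scaled by library total and not by TMM. The TMM factors were 1.01 to 1.07 in OMVSSDC, 0.989 to 1.01 in ZJDC and 0.954 to 0.959 in PBSDC. Rises from PBSDC are therefore larger in FPKM than in the fit.

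Counts were fitted in R 4.3.3 with edgeR 4.0.16 (filterByExpr with minimum count 10 and minimum total 15, TMM, robust quasi-likelihood with 6 residual degrees of freedom, all 9 libraries, group only). Contrasts were two-sided and adjusted by Benjamini-Hochberg over 11568 genes. Of the genes in the table, 4916 had 0 counts throughout. Fold changes are log2, errors are SE of the contrast or SD over libraries, and intervals are 95%. CPM are TMM-scaled; the limit that a count of 0 allows was set at 3 counts per library, and it covers counting error only. Alternatives were other scalings and filters, DESeq2 1.42.0, limma-voom (limma 3.58.1), the replicate number as a block, the 2 compared groups alone, each library left out, and OMVSSDC reduced to the third library. When an arm held 1 library, that library was assumed to vary like the other groups. On data simulated with 200 genes at 2-fold the fit recovered 160, 164 and 169 of them for OMVSSDC against PBSDC, ZJDC against PBSDC and OMVSSDC against ZJDC. Of the calls made there 11 of 171, 14 of 178 and 8 of 177 were wrong. In the simulation only those 200 genes changed and no library stood apart, unlike in the data. The rates therefore do not carry over to these comparisons.

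The members, lists, markers and alternatives were chosen with earlier results of these data known. Named genes are all members, the neighbours of Cd274, Cd80, and per list up to 3 called genes per direction with the largest change in OMVSSDC against PBSDC and a group mean of at least 1 CPM; 2 of these are not reported here. Genes named for likeness are the 6 nearest to Cd274 and the nearest 3 or fewer to other members. Promoter sequences are from RefSeq.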

Additional observations from a re-analysis of the deposited data

How the results depend on the processing

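Against PBSDC the 8 tested checkpoint genes kept their directions under all 18 alternatives, and ZJDC kept 8 calls in each. OMVSSDC kept 8 calls except for 7 where Pvr was lost, and 7 to 8 with 1 library left out. Cd274 ranged from 2.89 to 3.18 in OMVSSDC and from 2.77 to 2.85 in ZJDC. Between OMVSSDC and ZJDC the count of members called, 0, became 2 with DESeq2, 1 with the third OMVSSDC library alone and 0 to 4 with 1 library left out. The count over all genes, 226 (99 higher and 127 lower, or 115 and 91 with library size alone), became 1643 with DESeq2, 0 with only the 2 groups, 355 with the third OMVSSDC library alone and 0 to 6539 with 1 library left out. The count over the lists, 1, became 2 with library size alone, 14 with DESeq2, 2 with limma-voom, 0 with only the 2 groups, 2 with the third OMVSSDC library alone and 0 to 65 with 1 library left out. The cause of these moves was not tested.

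Deviations of same-numbered libraries from their group means correlated at -0.39 to 0.089, which gave no sign of a pairing by replicate number. With 3 libraries per group, and the third OMVSSDC library apart from its group, such correlations cannot exclude a pairing. With the replicate block OMVSSDC against ZJDC had 0 calls over all genes, 0 over the lists and 0 members, and both comparisons with PBSDC kept 8 members. The block ended the calls of Cd244a (adjusted p = 0.0552) and Trappc4 (adjusted p = 0.0503) in OMVSSDC, of Nectin4 in ZJDC (adjusted p = 0.0591) and of Irf7 between OMVSSDC and ZJDC (adjusted p = 0.116).

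Some small changes turned sign. With library size alone, in OMVSSDC, Cdc37l1 was 0.0089 and Cd80 0.074, and in ZJDC Ermp1 was 0.039 and Cdc37l1 0.049. With the third OMVSSDC library alone Trappc4 was -0.14, Cdc37l1 0.076 and Cd80 0.19. With 1 library left out Cd80 in OMVSSDC ranged from -0.19 to 0.052 (highest without the second OMVSSDC library) and Cdc37l1 in ZJDC from -0.065 to 0.026. Between OMVSSDC and ZJDC, Havcr2 ranged from -0.26 to 0.40 and Entpd1 from -0.037 to 0.23 in the same way. Depth limits Pdcd1lg2 and Nt5e, with at most 3 counts per library, and widens the error of Havcr2.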
